A study of Mus musculus with 4 samples.

Results

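The genes described are 10 regulators of the step from G1 into DNA synthesis: the D-type cyclins Ccnd1, Ccnd2 and Ccnd3, the E-type cyclins Ccne1 and Ccne2, the kinase gene Cdk4, and the inhibitor genes Cdkn2b, Cdkn2c, Cdkn1b and Cdkn1c. They were chosen by name, as every probe set (a group of array oligonucleotides that together read 1 transcript) annotated to exactly 1 of these symbols. They are 10 of 18193 genes with a probe set of their own, and 24 of the 45101 probe sets on the array. Of the 10 genes, 6 were read by more than 1 probe set and 4 by a single one. Of the 24 probe sets, 23 passed a filter on low values and were tested, and 1, for Cdkn1b, did not.

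The cultures were organoids of mouse intestine, epithelium that grows as small closed structures in Matrigel, and all carried floxed Apc alleles (Apc fl/fl). In 4 groups of 1 array each, organoids given 4-hydroxytamoxifen (4OHT) for 24 h to recombine Apc were collected at day 4 and at day 6, and untreated organoids were collected at the same days. The product of Apc helps to target beta-catenin, the effector of Wnt signalling, for degradation, and the labels call the 4OHT-treated organoids Apc-deficient. The sources used here do not give the recombinase that 4OHT activates, its promoter or the number of animals behind the organoids. Treated organoids lacking the floxed alleles were not analysed here, so effects of 4OHT itself and of Apc recombination cannot be told apart.

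D-type cyclins bind CDK4 or CDK6 and begin to phosphorylate the retinoblastoma protein, which releases E2F transcription factors. E-type cyclins, which are E2F targets, then activate CDK2 and carry the cell into S phase. INK4 proteins (from Cdkn2b and Cdkn2c) block CDK4 and CDK6, and CIP/KIP proteins (from Cdkn1b and Cdkn1c) bind cyclin-CDK complexes more widely. In the intestine, Wnt signalling keeps crypt cells cycling, and cells that leave the crypt stop dividing as they differentiate.

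Each array gave 1 intensity per probe set, between 2.73 and 23910.3, with medians of 19.3 to 22.0. Array medians within a day nearly coincided, whereas the log2 span from the 5th to the 95th percentile was 6.73 and 6.89 on the day 6 arrays and 5.90 and 5.77 on the day 4 arrays (4OHT and untreated). The scaling between the days is unknown. The gap between 3' and 5' signal was wider on the 4OHT arrays at both days, by 0.94 and 0.62 for Actb and by 0.87 and 0.56 for Gapdh (log2, day 4 and day 6), and its part in the results below was not tested. All 9 epithelial markers, Epcam and Cdh1 among them, passed the level filter. Of markers for other cells, 3 of 9 fibroblast and muscle genes (Col3a1, Lum and Myh11), 1 of 5 endothelial and 2 of 7 immune genes, the pan-leukocyte gene Ptprc among them, lay under it on all arrays at every probe set. Summed over each list, intensities of these 3 lists ran from 61.1 to 266.0 on the 4OHT arrays and from 55.0 to 272.6 on the untreated arrays, against 18453 to 28029 and 16042 to 31133 for the epithelial list. The sources used here do not give the deleted part of Apc, so its 4 probe sets do not check the labels.

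The first question was how these genes stood once recombination of Apc had been induced, with 4OHT-treated organoids set against untreated ones. The 1 member that passed the test was Cdkn2b, an inhibitor of CDK4 and CDK6, which fell over both days and was lower at each. Cdk4 and Ccnd1, the kinase and a cyclin that activates it, were higher with 4OHT at both days on their brightest probe sets but did not pass. The other inhibitors, and 4 of the 7 probe sets of Ccnd2, were higher with 4OHT at day 4 and lower at day 6, on the brightest probe set of each inhibitor. Opposite signs on the days, in either order, were found for 9 of the 23 member probe sets tested and for 44.1% of all tested. All 9 were higher with 4OHT at day 4 and lower at day 6. The share of all probe sets in that 1 order is not given, so whether the members stand apart was not tested. Differences are in log2(intensity + 16), where dim probe sets change less than their intensities do, and every fold is a ratio of intensity + 16. With 1 array per group a difference at a single day has no replicate check.

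The test was limma with additive terms for 4OHT and for day, fitted to the 4 arrays, with p-values adjusted by Benjamini-Hochberg over the 27807 probe sets past the level filter. It takes the days as repeats of the 4OHT contrast, so its error comes from disagreement between the days and not from the spread between cultures. With 1 residual and 10.7 prior degrees of freedom, each SE rests mostly on disagreement pooled over all tested probe sets. It thus says little about how well the days matched for that probe set. Of the 23 member probe sets tested, none rose and 1 fell, against 0.316% of all tested probe sets that rose and 0.856% that fell. The other 22 had adjusted p-values between 0.12 and 0.997, and 5 of the 23 had an unadjusted p under 0.05. In all, 326 probe sets were called and 3199 had an unadjusted p under 0.05.

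**Figure D1:**
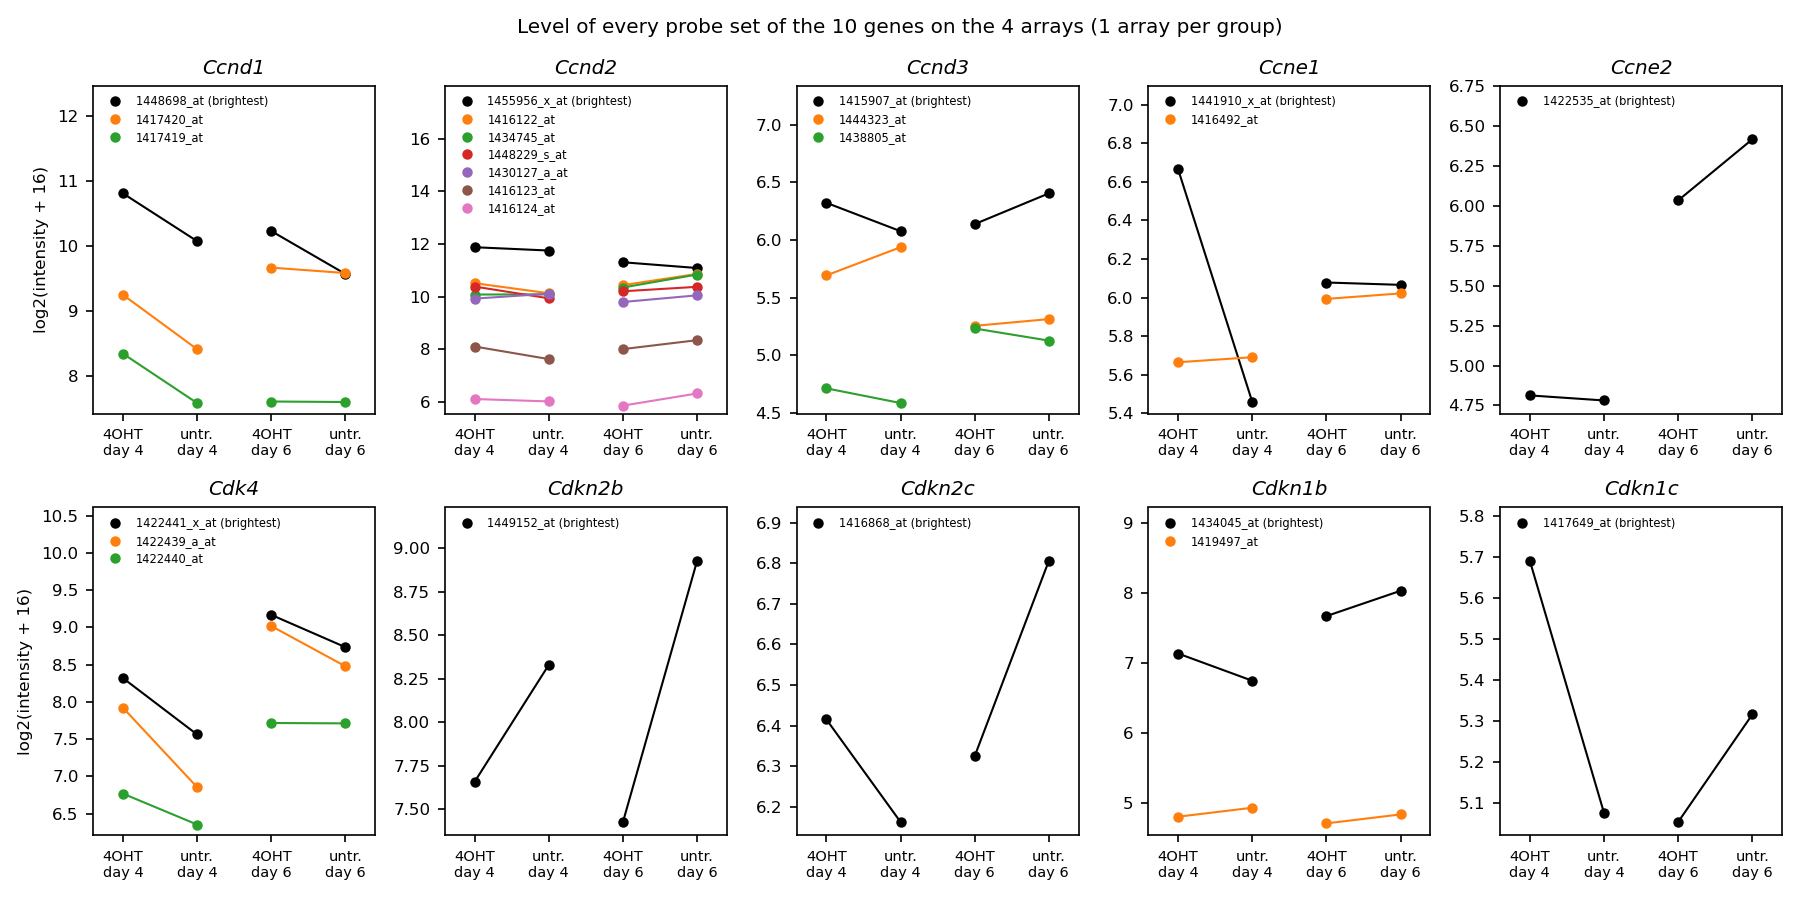
Level of each of the 24 probe sets, as log2(intensity + 16) on the vertical axis, on the 4 arrays along the horizontal axis, with lines joining the 4OHT and the untreated array of a day. Each panel is 1 gene with its own vertical range, and the brightest probe set of the gene is black. Cdkn2b is lower with 4OHT at both days, and the 3 Cdk4 probe sets are higher at day 6 than at day 4 in both arms.

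Among the D-type cyclins, Ccnd1, long studied as a target of Wnt signalling, was higher with 4OHT on all 3 of its probe sets at day 4, while at day 6 only the brightest stood clearly higher. That probe set, 1448698_at, read 1786 on the 4OHT array and 1067 on the untreated array at day 4, and 1190.2 and 747 at day 6. Both 4OHT arrays lay above both untreated arrays there. The differences were 0.73 and 0.66, and over both days 0.70 ± 0.20 (SE, limma adjusted p = 0.15). Probe set 1417420_at read 595 with 4OHT and 326 untreated at day 4, a difference of 0.84, and 800 and 755 at day 6, a difference of 0.08. Probe set 1417419_at read 310.3 with 4OHT and 177 untreated at day 4, and 179.9 and 179 at day 6. Its differences were 0.76 at day 4 and 0.0077 at day 6, the last turning below 0 with median centring of the arrays. The 3 probe sets thus did not show the same size of difference at day 6, and over them the mean difference was 0.78 at day 4 and 0.25 at day 6.

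Ccnd2, a D-type cyclin with 7 probe sets, was higher with 4OHT on 5 of them at day 4 and on 1 of them at day 6. The brightest, 1455956_x_at, read 3749 with 4OHT and 3435 untreated at day 4, and 2519 and 2163 at day 6. Its differences of 0.13 and 0.22 made it the 1 probe set of Ccnd2 that was higher at both days (0.17 ± 0.20, limma adjusted p = 0.83). Probe sets of its name type, ending in _x_at, can bind more than 1 transcript. Probe set 1416122_at read 1447 with 4OHT and 1106 untreated at day 4, and 1373 and 1849 at day 6, so the order of the arms turned between the days. The differences of the 7 probe sets spanned -0.19 to 0.48 at day 4 and -0.49 to 0.22 at day 6, and their lowest adjusted p over both days was 0.74.

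Ccnd3, the third D-type cyclin, was dim on all 3 of its probe sets. Its brightest, 1415907_at, read 64.1 with 4OHT and 51.5 untreated at day 4, and 54.4 and 68.8 at day 6. The difference was 0.25 at day 4 and -0.27 at day 6, with a mean of -0.010 ± 0.21 (limma adjusted p = 0.997) that turned above 0 after quantile normalization. The other probe sets differed by -0.24 and 0.13 at day 4 and by -0.06 and 0.11 at day 6. The values 0.13 and 0.11 are those of 1438805_at. This probe set read 10.2 with 4OHT and 7.98 untreated at day 4, and 21.6 and 18.9 at day 6. Only the 4OHT array of day 6 took it past the level filter.

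Of the E-type cyclins, Ccne1 was read differently by its 2 probe sets. Probe set 1441910_x_at read 85.5 with 4OHT and 28.0 untreated at day 4, a difference of 1.21, and 51.6 and 51.0 at day 6, a difference of 0.01. As a dim probe set it depended on the pseudocount, with a day 4 difference of 1.58 at a pseudocount of 1 and of 0.70 at 64. Probe set 1416492_at read 34.7 with 4OHT and 35.6 untreated at day 4, and 47.7 and 49.0 at day 6, with differences of -0.03 at both days. The higher level at day 4 thus rested on 1 array and on 1 probe set of the _x_at kind, and over both days it did not pass (0.61 ± 0.26, limma adjusted p = 0.40). Ccne2 was near the low end of the array at day 4, with 12.1 with 4OHT and 11.5 untreated, and read 49.5 and 69.4 at day 6. Its differences with 4OHT were 0.03 and -0.38 (-0.18 ± 0.21, limma adjusted p = 0.84).

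Cdk4, which encodes the kinase partner of the D-type cyclins, was higher with 4OHT on all 3 probe sets at day 4, and at day 6 on the brighter ones. Probe set 1422441_x_at, the brightest, read 303 with 4OHT and 173 untreated at day 4, and 559 and 409.5 at day 6. Its differences were 0.76 and 0.43 (0.60 ± 0.20, limma adjusted p = 0.26). In a fit without the day term, the value was 0.0097 without the untreated array of day 4 and 1.18 without the untreated array of day 6. Such a fit sets both 4OHT arrays against the untreated array of 1 day. It therefore mixes the 4OHT difference with the difference between the days. Probe set 1422439_a_at read 226 with 4OHT and 99.8 untreated at day 4, a difference of 1.07, and 502 and 340.3 at day 6, a difference of 0.54. Over both days it was higher by 0.80 ± 0.21 (limma adjusted p = 0.12), above the mean difference of 99.2% of the tested probe sets. It passed the threshold in 1 alternative, after quantile normalization of the arrays (adjusted p = 0.049), and its adjusted p otherwise ran up to 0.999999 over the alternatives. Probe set 1422440_at read 93.0 with 4OHT and 65.7 untreated at day 4, and 194.2 and 193 at day 6. Its difference was 0.41 at day 4 and 0.0049 at day 6, the last turning below 0 with median centring.

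The promoter of Cdk4 is shown because the gene is an established target of MYC, a Wnt-induced factor that binds the E-box CACGTG. Of the 10 genes, 6 have windows in the RefSeq promoter table (build GRCm38.p6), 8 windows in all, each from 250 bases before to 50 after a transcript start. Both strands were searched for the E-box CACGTG, the TCF motif CTTTGAT and the E2F motif TTTNGCGC. The GC box GGGCGG was searched as well, and its matches are not marked. The Cdk4 window, chr10:127063285-127063584 on the plus strand, held 4 E-boxes, which begin at positions -172, -118, -98 and -11 from the start, and 1 TCF motif on the opposite strand, at position -52. Capitals mark these matches, and no 2 of them overlap.

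Cdk4: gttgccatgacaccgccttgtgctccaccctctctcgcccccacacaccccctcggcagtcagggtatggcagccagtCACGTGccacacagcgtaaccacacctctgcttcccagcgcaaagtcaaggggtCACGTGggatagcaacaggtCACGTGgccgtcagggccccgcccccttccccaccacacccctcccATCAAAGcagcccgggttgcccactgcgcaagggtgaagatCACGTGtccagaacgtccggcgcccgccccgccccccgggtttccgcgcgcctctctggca

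Of all 32851 windows in the table, 7.15% held the E-box, 8 windows held it 4 or more times, 3.73% held the TCF motif and 1.38% the E2F motif. Among the 8 windows of the members, 2 held the E-box, 1 the TCF motif and 0 the E2F motif. The GC box was held by 35.7% of all windows and by 7 of the 8 member windows, with 3 matches in the Cdk4 window. These are matches of letters, not sites shown to be bound in organoids.

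**Figure D2:**
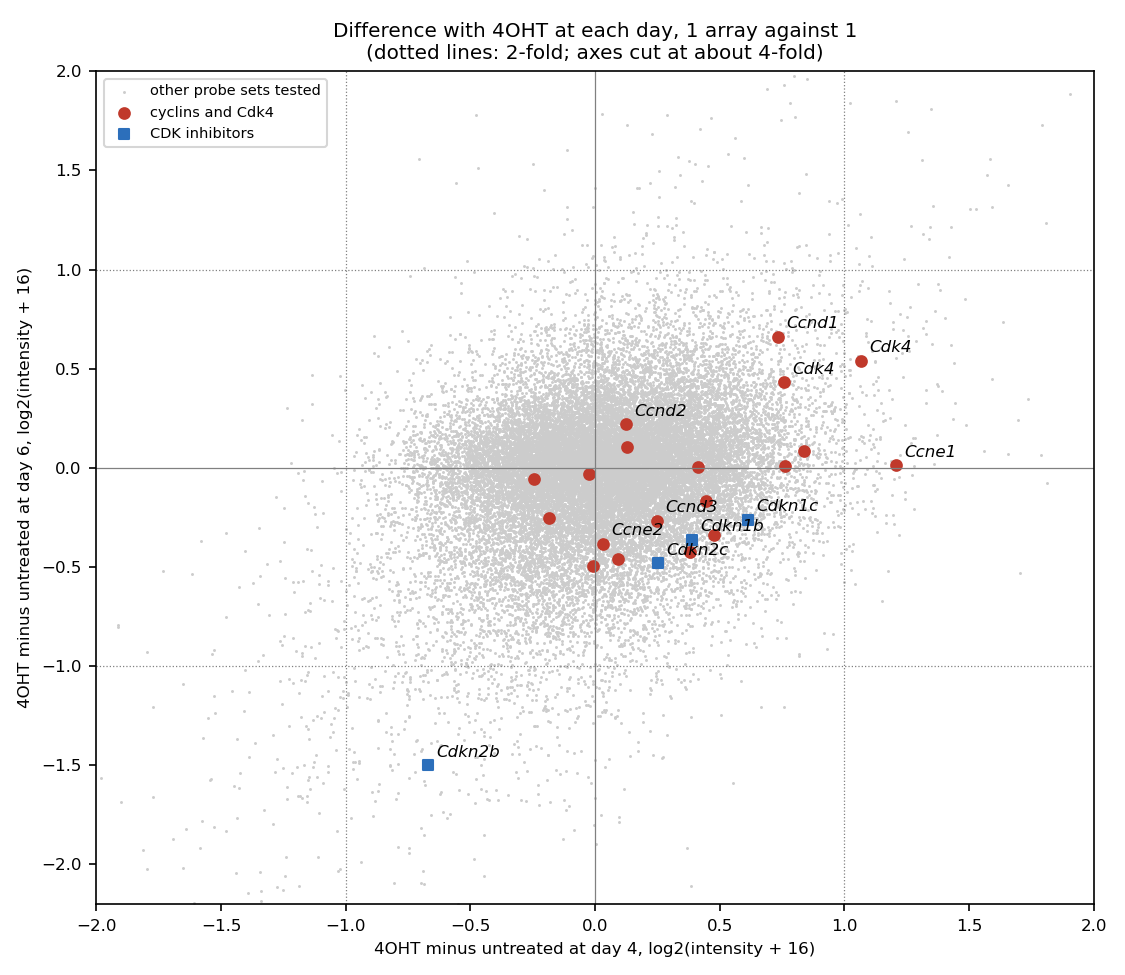
Difference between 4OHT-treated and untreated organoids at day 4 (horizontal) and day 6 (vertical), both in log2(intensity + 16), for the 23 member probe sets (coloured) over all others past the level filter (grey). Cdkn2b lies at -0.67 and -1.50, and the labelled Ccnd1 and Cdk4 points lie above 0 on both axes.

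Of the INK4 inhibitors, Cdkn2b fell with 4OHT. Its probe set 1449152_at read 186 with 4OHT and 306 untreated at day 4, and 156 and 471 at day 6. Both 4OHT arrays lay below both untreated arrays, and the distance was wider at day 6. The differences were -0.67 at day 4 and -1.50 at day 6, and over both days -1.09 ± 0.23 (SE, limma adjusted p = 0.0498). At day 4, 3.18% of the tested probe sets had a lower difference, and at day 6 0.665% had. As these are whole organoids, fewer cells with the transcript and less transcript per cell cannot be told apart. The call lay at the threshold: among 15 alternatives the value stayed below 0 in all, between -1.38 and -0.79, and the adjusted p stayed under 0.05 in 5 (range 0.0088 to 0.999999).

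Of 11 measured markers of enterocytes, the absorptive cells, 6 fell with 4OHT, as Cdkn2b did, and none rose. The median of the 11 differences was -1.13 at day 4 and -1.27 at day 6. Their summed intensity was 1412 on the 4OHT array and 3708 on the untreated array at day 4, and 6281 and 12871 at day 6. Of 6 measured markers of Paneth cells, the granule-filled cells of the crypt base, 3 rose with 4OHT and none fell. Their summed intensity was 46560 with 4OHT and 28989 untreated at day 4, and 43281 and 12519 at day 6. Krt20, a keratin of differentiated epithelium and the 1 epithelial marker of 9 that passed, fell by 1.41 ± 0.20 (limma adjusted p = 0.0067). The part of cell composition in the fall of Cdkn2b was not tested. By distance between log2 levels centred on each gene's mean over the 4 arrays, the genes most like Cdkn2b among 12489 were Cyp2u1 (0.19), Anks4b (0.20) and Chp2 (0.26). With only 4 points, such likeness is a description.

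The Cdkn2b window is shown as that of the 1 member that passed the test. It lies at chr4:89310983-89311282 on the minus strand, and is written from upstream to downstream. None of the E-box, TCF or E2F letters searched occurs in it, so it has no capitals. It held 1 GC box, which is not marked. The windows printed were picked with the members' differences known, and any link of motifs to those differences was not tested.

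Cdkn2b: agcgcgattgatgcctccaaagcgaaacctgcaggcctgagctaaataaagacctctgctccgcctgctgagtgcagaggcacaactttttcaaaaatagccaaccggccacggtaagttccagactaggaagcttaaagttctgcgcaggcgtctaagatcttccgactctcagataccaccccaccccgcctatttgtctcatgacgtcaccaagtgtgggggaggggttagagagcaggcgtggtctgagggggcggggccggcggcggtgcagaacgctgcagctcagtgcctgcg

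Cdkn2c, the other INK4 gene, read 69.4 with 4OHT and 55.6 untreated at day 4, and 64.2 and 95.9 at day 6. Its differences were 0.25 and -0.48 (-0.11 ± 0.23, limma adjusted p = 0.92), so the arms changed order between the days. Of the CIP/KIP genes, Cdkn1b read 124 with 4OHT and 91.0 untreated at day 4, and 187 and 245 at day 6, on probe set 1434045_at. The differences were 0.39 and -0.36 (0.01 ± 0.23, limma adjusted p = 0.995). The second Cdkn1b probe set, 1419497_at, stayed between 10.1 and 14.4 on all arrays, under the level filter of 20.9, and was not tested. Cdkn1c, an imprinted gene, was dim, with 35.6 with 4OHT and 17.7 untreated at day 4, and 17.2 and 23.8 at day 6. Its differences were 0.61 and -0.26 (0.18 ± 0.24, limma adjusted p = 0.87).

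Taken by day and at 2-fold, 2 member probe sets were higher with 4OHT at day 4, 1441910_x_at of Ccne1 and 1422439_a_at of Cdk4, and none was lower, against 0.82% and 0.809% of all tested. At day 6 none was higher and 1, Cdkn2b, was lower, against 0.676% and 2.23%. At the brightest probe set of each gene, 9 of the 10 genes were higher at day 4 and 4 were higher at day 6, where 56.7% and 49.0% of 13198 genes were higher. Those 4 were Ccnd1, Ccnd2, Ccne1 and Cdk4, and the lower ones were all 4 inhibitors with Ccnd3 and Ccne2. The day 6 difference of Ccne1 was only 0.01. Ccnd2 was higher at day 6 on 1 of its 7 probe sets, with a mean of -0.27 over them. Over the 23 probe sets, several of which read the same gene, the median difference was 0.38 at day 4 and -0.17 at day 6, beside 0.04 and -0.01 over all tested.

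**Figure D3:**
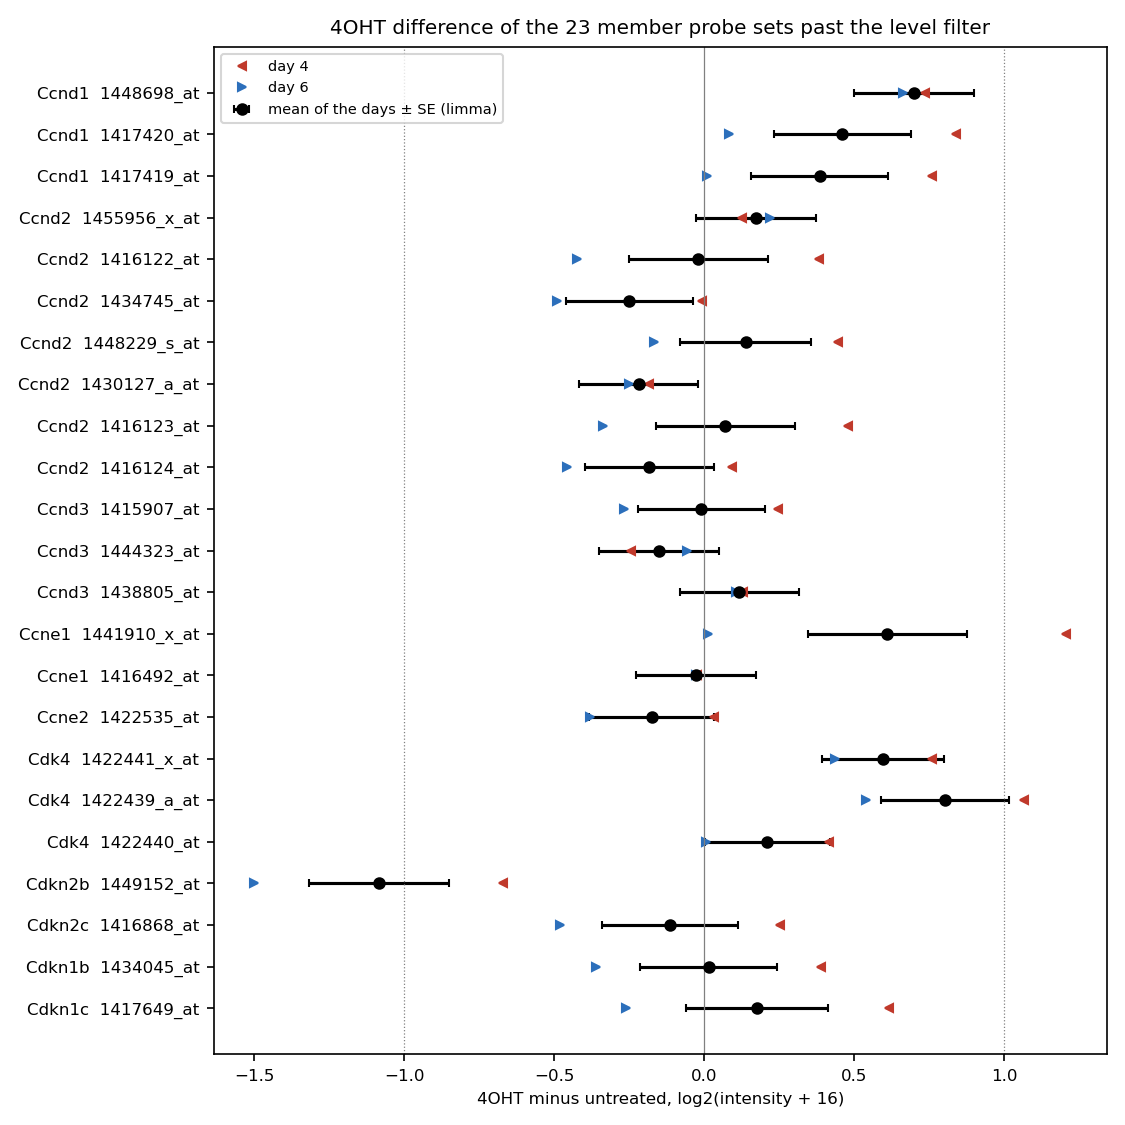
Difference between 4OHT-treated and untreated organoids in log2(intensity + 16) for the 23 member probe sets past the level filter, with the mean over the days and its SE from limma (black) and the value of each day (triangles). Cdkn2b at -1.09 is the 1 probe set past the test. For Cdkn1b, Cdkn1c and Cdkn2c the days lie on opposite sides of 0.

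The list of 30 other genes of G1 and S-phase entry held 1 gene that fell, none that rose and 29 that did not pass. The gene that fell was Rb1, which encodes the retinoblastoma protein, the main substrate of CDK4 and CDK6 in G1. It read 19.1 with 4OHT and 43.8 untreated at day 4, and 73.7 and 208 at day 6, and differed by -0.77 and -1.32 (-1.04 ± 0.21, limma adjusted p = 0.041). Its value was -0.53 over the mean of its probe sets, with an adjusted p of 0.18 (range over the alternatives 0.0082 to 0.999999). The list's median difference was 0.10 at day 4 and -0.11 at day 6.

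By the smaller of their differences at each day, the genes of that list that stood highest were Cdk6, Skp2 and Fbxw7. Cdk6, the close relative of Cdk4, was higher by 0.53 and 0.76 (0.64 ± 0.20, limma adjusted p = 0.20). It was higher at both days on 2 of its 3 probe sets past the filter, and by 0.47 over the mean of its probe sets. Skp2, which marks the product of Cdkn1b for destruction, was higher by 1.16 and 0.24 (0.70 ± 0.24, limma adjusted p = 0.26). Of its 5 probe sets past the filter, 2 were higher at both days, and the mean over its probe sets was 0.19. Fbxw7, which marks cyclin E for destruction, was higher by 0.24 and 0.79 (0.51 ± 0.21, limma adjusted p = 0.38), and by 0.30 over the mean of its probe sets. After Rb1, those that stood lowest were the E2F genes E2f2 (-0.63 ± 0.22, limma adjusted p = 0.27) and E2f3 (-0.37 ± 0.20, limma adjusted p = 0.54). None of 13 mitosis genes and none of 15 DNA replication genes passed. Their medians were 0.08 and 0.45 at day 4 and -0.16 and 0.14 at day 6.

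**Figure D4:**
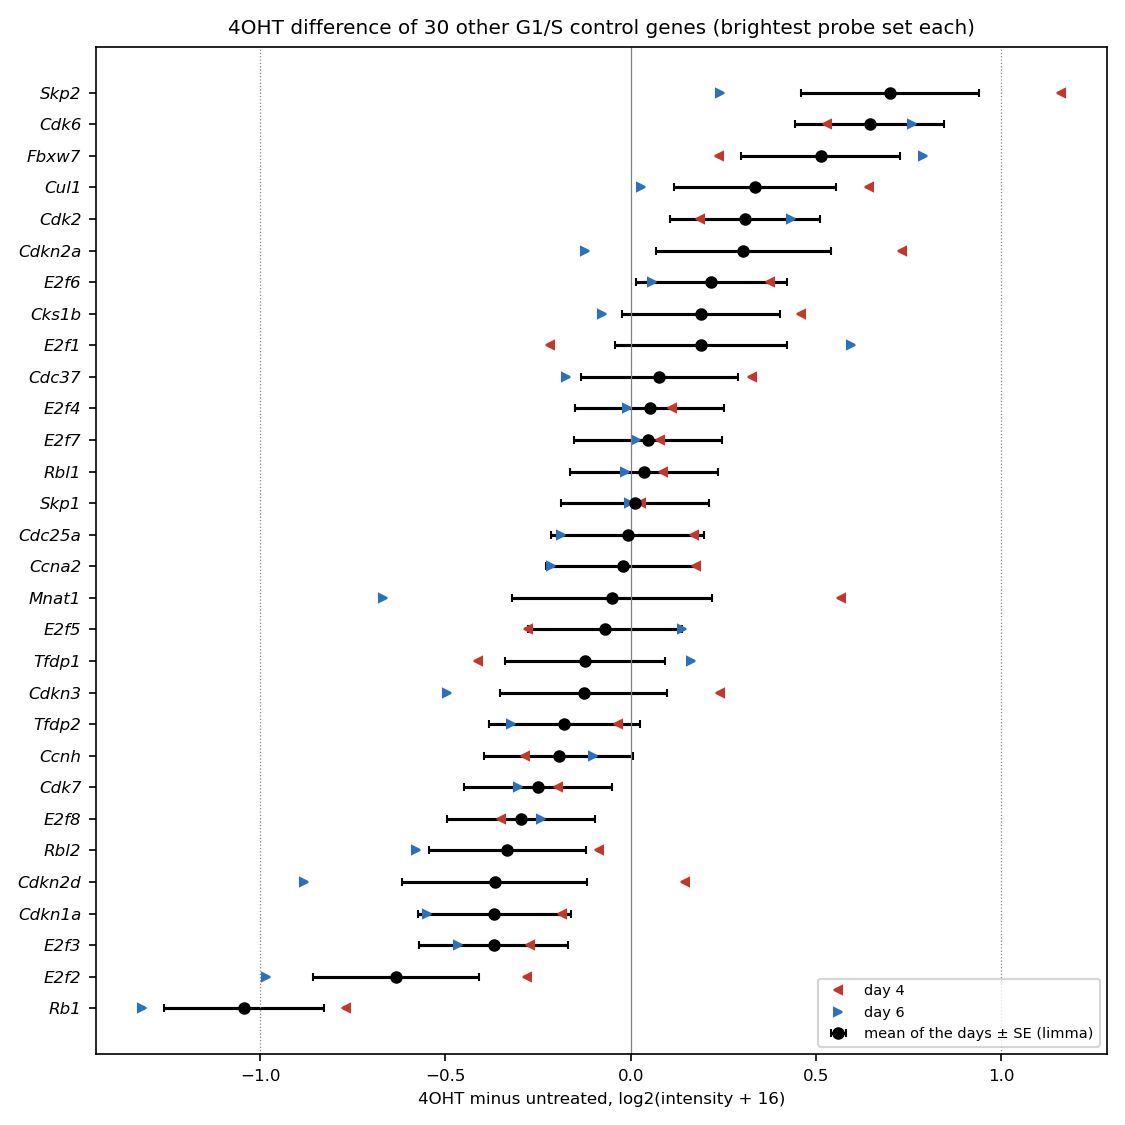
Difference between 4OHT-treated and untreated organoids in log2(intensity + 16) for 30 other genes of G1 and S-phase entry, 1 probe set each, with the mean over the days and its SE from limma (black) and the value of each day (triangles). Rb1 at -1.04 is the 1 gene of the list past the test.

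Day 6 was set against day 4 within each arm by differences alone. No test was made, since the scaling between the days is unknown. Cdk4 and Ccne2 were higher at day 6 than at day 4 in both arms, as deposited and also after median centring and quantile normalization. The brightest probe sets of Ccnd1 and Ccnd2 were lower at day 6 in both arms under the same settings. Scaling moved all values: the median of all tested probe sets was 0.05 with 4OHT and 0.15 untreated as deposited, -0.08 and -0.05 after quantile normalization, and 0.15 and 0.26 after median centring.

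Ccne2 stood 1.22 higher at day 6 in the 4OHT arm and 1.64 higher in the untreated arm, and 1.21 and 1.55 after quantile normalization. As its day 4 readings were low, the pseudocount set the size: the values were 1.95 and 2.49 with a pseudocount of 1, and 0.58 and 0.82 with 64. The 3 Cdk4 probe sets were 0.85 to 1.10 higher at day 6 in the 4OHT arm and 1.17 to 1.62 higher in the untreated arm, and 0.40 to 0.63 and 0.47 to 0.96 after quantile normalization. Cdkn1b (1434045_at) was 0.53 and 1.29 higher, and 0.06 and 0.64 after quantile normalization. The brightest Ccnd1 probe set differed by -0.58 with 4OHT and -0.51 untreated, and by -0.97 and -1.20 after quantile normalization. That of Ccnd2 differed by -0.57 and -0.66, and by -0.94 and -1.12 after quantile normalization. The second Ccnd1 probe set, 1417420_at, was instead 0.42 and 1.17 higher, the first of these turning to -0.04 after quantile normalization, so the probe sets of Ccnd1 did not give 1 direction over time.

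At 2-fold, 2 member probe sets were higher at day 6 in the 4OHT arm, Ccne2 and 1422439_a_at of Cdk4, and none was lower, against 15.8% and 2.38% of all tested probe sets. In the untreated arm 6 were higher, of Ccnd1, Ccne2, Cdk4 (3) and Cdkn1b, and none was lower, against 22% and 4.47%. Ccne2 lay under the level filter on both day 4 arrays and passed it only through day 6. Its count as higher at day 6 in each arm is therefore tied to the filter. After quantile normalization Ccne2 alone was higher in either arm, 1417419_at of Ccnd1 was lower in the 4OHT arm, and the brightest probe sets of Ccnd1 and Ccnd2 were lower in the untreated arm. Cdkn2b differed between the days by -0.23 in the 4OHT arm and by 0.60 in the untreated arm, and by -0.71 and -0.10 after quantile normalization. Over the same step, as deposited, the median difference was 0.65 with 4OHT and 1.09 untreated for the 30 other genes of G1 and S-phase entry, and 1.19 and 1.47 for the 15 DNA replication genes. It was 1.61 and 1.69 for the enterocyte markers and -0.31 and -1.11 for the Paneth cell markers, and their part in the members' differences was not tested. The comparisons of the arms share their arrays with those of 4OHT at each day, so they are another view of the same 4 values per probe set.

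**Figure D5:**
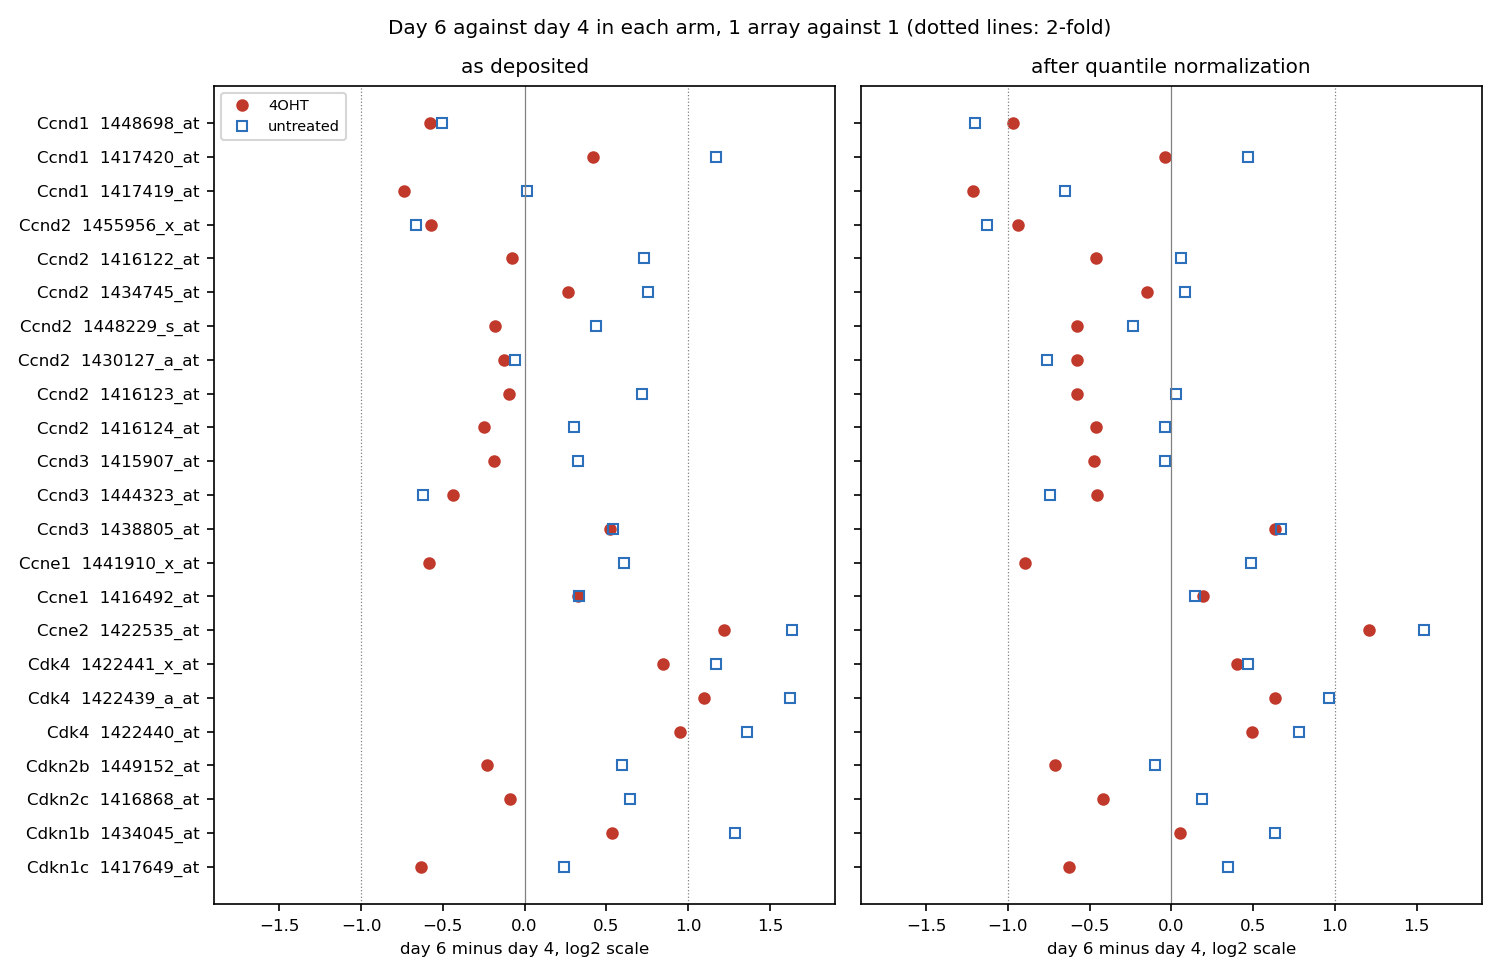
Day 6 minus day 4 on the log2 scale for the 23 member probe sets, in 4OHT-treated (filled) and untreated organoids (open), as deposited (left) and after quantile normalization (right). Ccne2 and Cdk4 lie above 0 in both arms in both panels, and many other points shift downward in the right panel.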

How the data were processed

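Expression was measured on 4 arrays, 1 per group, with biotinylated cRNA made by a 3' kit (100 ng of RNA each), per the labels' protocols. The deposited values are linear intensities, summarised by the authors to 1 per probe set. The sources used here do not give the background correction, normalization or scaling between days. All 4 columns were used, and 64 control probe sets were left out.

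Values were moved to log2(intensity + 16). A probe set was tested where its highest value reached 20.9, which is the median over all arrays. limma 3.58.1 (R 4.3.3, lmFit and eBayes) was fitted across all tested probe sets with 4OHT and day as terms, 1 residual degree of freedom, a prior SD of 0.21 and 10.7 prior degrees of freedom. Adjusted p under 0.05 or a difference of 2-fold was called. The fit was run on simulated data with independent noise around each probe set's mean and no difference between the days. That run does not check how the test behaves where the 4OHT effect differs between the days. Tables and plots used Python 3.11.15, pandas 2.3.3, numpy 2.4.6 and matplotlib 3.10.9. The number of arrays limits the precision. The p-values rest on disagreement between the days. Nothing states that the arrays came from separate cultures, so how far that disagreement is technical spread is unknown.

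Members and lists were chosen with earlier results of these data known. All 10 members are named, with the genes of the other G1 and S-phase list that passed or had the 3 largest smaller differences of the days in each direction. Marker lists are given as counts, and the choice to name Krt20, Epcam, Cdh1 and the markers under the filter was made with their values in view. Of list genes, 1 enterocyte, 2 Paneth cell, 1 mitosis and 1 immune gene are not analysed here. Gene symbols come from the platform annotation, and all 24 member probe sets matched the current gene table. Alternatives were the level filter, quantile normalization, median centring, an adjusted p under 0.1, pseudocounts of 1 and 64, 1.5-fold and 3-fold as the difference called, 1 probe set or the mean of probe sets per gene, no _x_at or _s_at probe sets, no day term, and leaving out each array.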

Additional observations from a re-analysis of the deposited data

Results flagged for a closer look

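For 9 of the 23 member probe sets tested the difference with 4OHT had opposite signs on the days (44.1% of all tested probe sets had opposite signs, in either order), below 0 at day 6 and above 0 at day 4. With 1 array per group this difference between the days was not tested. Given as the day 6 difference minus the day 4 difference, it was -0.81, -0.62, -0.82 and -0.55 for the Ccnd2 probe sets 1416122_at, 1448229_s_at, 1416123_at and 1416124_at. It was -0.51 for Ccnd3 (1415907_at) and -0.41 for Ccne2. Among the inhibitors it was -0.75 for Cdkn1b, -0.88 for Cdkn1c and -0.73 for Cdkn2c. No group had enough arrays to be searched for a single outlying array.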

How the results depend on the processing

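No paired analysis was possible because each group holds 1 array and the labels number no replicates; day already stood as a term in the fit. The count of member probe sets past the test, 1 as reported, was 0 with no level filter, with the filter on the mean, with a pseudocount of 1 or 64, with _x_at and _s_at probe sets left out and without the day term, and 2 after quantile normalization. Leaving out any 1 array, with no day term since 3 arrays leave no degree of freedom for it, gave 0. Over all tested probe sets the count called, 326 as reported, was 0 with no level filter, a pseudocount of 1 or 64 or no day term, 99 with the filter on the mean, 573 after quantile normalization, 587 after median centring, 568 at an adjusted p under 0.1 and 0 to 87 without single arrays. Cdkn2b had adjusted p-values of 0.46, 0.14, 0.35, 0.25, 0.055 and 0.999997 under the settings that ended its call, in the order just given.

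Counts at 2-fold for 4OHT at day 4 (2) became 0 with a pseudocount of 64, 8 at 1.5-fold and 0 at 3-fold, and at day 6 (1) they became 2 at 1.5-fold and 0 at 3-fold. For day 6 against day 4 with 4OHT (2) they became 5 and 0 with pseudocounts of 1 and 64, 7 at 1.5-fold and 0 at 3-fold. In the untreated arm (6) they became 3 after quantile normalization, 2 with a pseudocount of 64, 14 at 1.5-fold and 2 at 3-fold.

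None of the values over both days that changed sign had passed the test. With the mean of all probe sets Ccnd2 became -0.042 and Cdkn1b -0.057, with a pseudocount of 64 Cdkn1b became -0.0099, and after quantile normalization Ccnd3 became 0.020. Leaving out single arrays, where 4OHT and day are no longer balanced, gave -0.16 to 0.50 for Ccnd2 (-0.11 without the 4OHT array of day 4), -0.17 to 0.15 for Ccnd3 (0.082 without the 4OHT array of day 6), -0.99 to 0.64 for Ccne2 (0.43 without the 4OHT array of day 4), -0.63 to 0.66 for Cdkn1b (-0.25 without the 4OHT array of day 6), -0.14 to 0.49 for Cdkn1c, -0.44 to 0.21 for Cdkn2c, -0.0076 to 1.61 for Cdk4 (1422439_a_at; 0.0097 to 1.18 for 1422441_x_at), -1.11 to 0.37 for E2f3 (0.27 without the 4OHT array of day 4) and -0.077 to 1.10 for Fbxw7. Rb1 ran from -1.997 to -0.091 and did not pass in any of these. It also did not pass with either pseudocount, without the day term, with the mean of its probe sets, or with the level filter dropped or set on the mean.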
